A study of Mus musculus with 6 samples.

Results

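Oxidative phosphorylation is the mitochondrial process in which electrons from NADH and succinate pass through complexes I to IV to oxygen, and the proton gradient this builds drives ATP synthesis by complex V. Complex II is encoded entirely by nuclear genes, whereas the other complexes join nuclear-encoded subunits, made in the cytosol and imported, with a few subunits made inside the organelle from mitochondrial DNA. The genes described here are those whose symbol begins with Nduf (followed by a, b, c, s or v), Uqcr, Atp5, or Cox with a subunit number and letter, together with Sdha to Sdhd and the mt-Nd, mt-Co, mt-Cytb and mt-Atp genes. This name rule, which uses no measured value, selected 117 of the 55571 gene symbols in the count table.

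The measurements are RNA sequencing counts from E0771, a mouse mammary carcinoma cell line. Cells expressing wild-type Malt1, a paracaspase that acts as a scaffold and protease in NF-kB signalling (Malt1-WT, 3 libraries), were set against cells carrying an empty vector (vector control, 3 libraries). Whether Malt1 counts come from the introduced or the endogenous gene cannot be told apart, and the labels give no stimulus for either group. Whether each line is a clone or a pool, and which promoter drives Malt1, the labels do not say.

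The 117 symbols comprise 104 nuclear and 13 mitochondrial genes. Of the nuclear genes, 74 encode subunits that most tissues use, 8 are complex I assembly factors (Ndufaf1 to Ndufaf8), 7 are isoforms restricted to certain tissues or conditions, and 12 are annotated as processed pseudogenes. The other 3 are Ndufb1-ps, Cox7a2l and Atp5s. Ndufa4, a protein first assigned to complex I, is counted here with complex IV, where it is now placed. In all, 95 members had enough counts to be tested and 22 did not. The untested members include 7 listed at 0 in every library, among them Ndufs3, Uqcrc1, Cox5b and Atp5a1, 4 subunits that respiring cells use. Their complexes are therefore described without them.

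Malt1 itself checked the labels. It had 5526, 6176 and 5087 counts in the Malt1-WT libraries, against 517, 633 and 611 in the vector control libraries. Total counts per library ran from 17601656 to 20543778. Of the epithelial markers, Krt8 (1021 to 1430 counts per library) and Epcam (95 to 132) were detected, while Krt18, Krt19 and Cdh1 did not exceed 9 counts in any library. The 5 epithelial markers summed to 64.0 to 69.7 CPM (counts relative to a common scaled library total) in Malt1-WT and 73.1 to 77.5 CPM in vector control, with 0 called higher and 1 called lower. Summed levels of the 5 fibroblast markers were 138 to 150 CPM in Malt1-WT and 195 to 207 CPM in vector control, with 0 called higher and 2 called lower. The 8 leukocyte markers summed to 16.8 to 19.1 CPM in Malt1-WT and 8.06 to 10.3 CPM in vector control, with 2 called higher and 1 lower. Over the 3 libraries of each group, Cd68 had 787 counts in Malt1-WT and 264 in vector control, and Adgre1 had 81 and 3. Lyz2 went the other way, with 41 and 221. Ptprc had at most 3 counts per library and Tyrobp was listed at 0. The 2 endothelial markers summed to 10.2 to 10.4 CPM in Malt1-WT and 4.43 to 5.55 CPM in vector control, with 1 called higher. The 2 muscle markers had too few counts to be tested. The part of these differences in the results that follow was not tested.

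Transcripts of the respiratory chain were for the most part modestly lower in Malt1-WT cells. Among them were all 4 complex II genes and 14 of the 15 tested nuclear ATP synthase subunits under the name rule. Of the 95 tested members, 59 were lower, 7 were higher and 29 were not called (edgeR quasi-likelihood test, adjusted p under 0.05 over all genes). Among all 13594 genes tested, 30.2% were called lower and 31.0% higher, so the share of members called lower, 62.1%, stood above that background and the share called higher, 7.37%, below it. The median log2 fold change of the members was -0.18, beside a median of -0.00 over all genes tested. In bulk RNA, fewer cells with a transcript and less of it per cell cannot be told apart.

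The sizes were small. Only 3 members, Ndufa5, Uqcrh and Cox7b2, differed by more than 1.5-fold, all lower. When each gene was tested against a minimum change of 1.2-fold (glmTreat), 16 members were lower and 2 were higher. The 16 are 16.8% of the tested members, beside 15.8% of all genes tested, so by that stricter rule the members were called lower about as often as other genes. The 2 higher ones are 2.11% of the members, beside 19.3% of all genes tested. All 3 Malt1-WT libraries lay below all 3 vector control libraries for 59 members and above them for 8, where 32.0% and 32.4% of all genes tested did so.

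**Figure D1:**
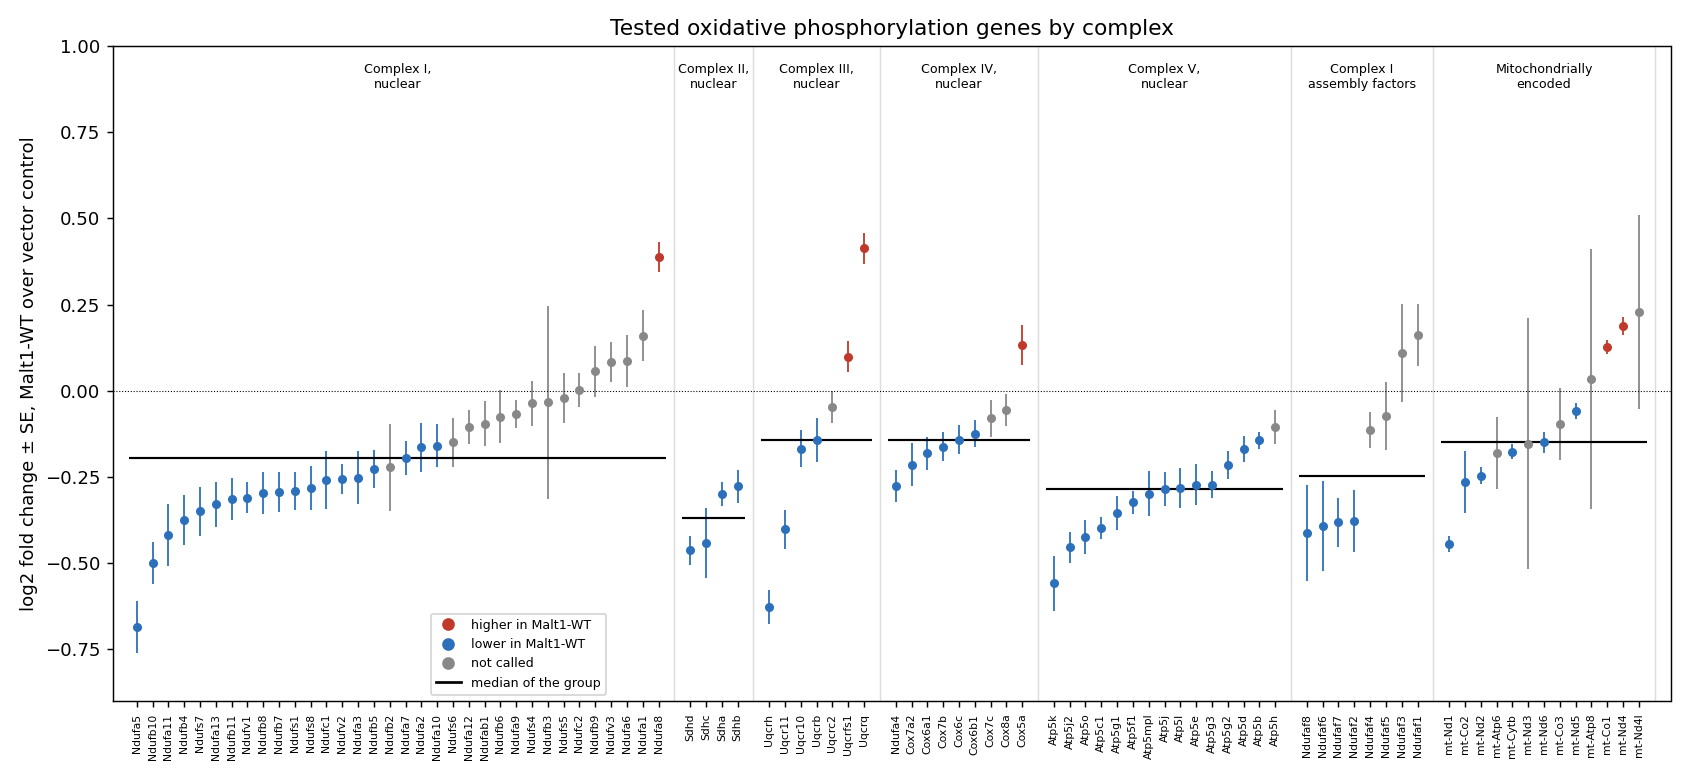
Log2 fold change of Malt1-WT over vector control (y axis, edgeR estimate ± SE) for the tested subunits and complex I assembly factors (x axis), grouped by complex and encoding, with the median of all tested genes of a group as a black line (1 complex I subunit is not drawn). Most points lie below 0, all 4 complex II genes are called lower, and Ndufa8, Uqcrq, mt-Nd4, Uqcrfs1, Cox5a and mt-Co1 are the called genes above 0.

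Of 70 tested nuclear subunits, 47 were lower, 4 were higher and 19 were not called. Their median log2 fold change was -0.22, their quartiles were -0.31 and -0.10, and 61 of the 70 estimates were below 0. Their summed level was 5423 ± 124 CPM in Malt1-WT cells and 6179 ± 156 CPM in vector control cells (SD, n = 3 each), a drop by 12.2%. Across these 70 genes the fold change followed neither transcript size nor abundance closely. Its Pearson correlation was -0.13 with log2 exon length and 0.03 with mean log2 CPM, a description across genes that share the same 6 libraries.

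Complex I, the NADH dehydrogenase, takes electrons from NADH to ubiquinone and is built from an NADH-oxidising N module, a ubiquinone-reducing Q module and a proton-pumping P module in the membrane. Of its 35 tested nuclear subunits, 19 were lower, 1 was higher and 15 were not called, with a median log2 fold change of -0.19. By module, 5 of 10 N subunits, 3 of 5 Q subunits and 11 of 19 P subunits were lower. The median was -0.29 for the 6 tested nuclear core subunits and -0.16 for the 29 supernumerary subunits, which surround the core.

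The largest decrease in complex I was that of Ndufa5, a supernumerary subunit of the Q module (chr6:24518666-24528013, GRCm38, minus strand). It had 22.6, 19.7 and 19.0 CPM in the Malt1-WT libraries, against 31.4, 34.9 and 32.2 CPM in the vector control libraries. The groups do not overlap, and the level fell by 37.8% (log2 fold change -0.69, SE 0.075, adjusted p = 2.34e-11). Ndufb10, a subunit of the distal membrane arm, had 40.2, 35.1 and 40.1 CPM in Malt1-WT, against 52.5, 58.2 and 52.0 CPM in vector control (log2 fold change -0.50, SE 0.060, adjusted p = 3.65e-10). Ndufa11, another membrane-arm subunit, had 16.1, 13.6 and 15.3 CPM in Malt1-WT, against 18.4, 21.6 and 19.9 CPM in vector control (log2 fold change -0.42, SE 0.089, adjusted p = 6.36e-05). Its exons overlap those of Vmac on the opposite strand, so reads from this pair may be mixed.

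Ndufa8 went the other way. This supernumerary subunit faces the intermembrane space and is held by disulfide bonds (chr2:36036326-36049406, minus strand). It had 97.6, 91.9 and 98.4 CPM in Malt1-WT, against 70.4, 74.3 and 74.8 CPM in vector control. Every Malt1-WT library was above every vector control library, with a log2 fold change of 0.39 (SE 0.044, adjusted p = 6.43e-11). Per kilobase of exon it was also the most abundant nuclear transcript of complex I, at 111 CPM per kilobase in Malt1-WT and 85 in vector control. The 15 uncalled subunits had log2 fold changes from -0.22 (Ndufb2, adjusted p = 0.127) to 0.16 (Ndufa1, adjusted p = 0.0592).

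The 8 Ndufaf genes code for proteins that help build complex I and are not part of the finished enzyme. Of these, 4 were lower and 4 were not called, with a median log2 fold change of -0.25. Ndufaf7, a protein methyltransferase, had 22, 22.3 and 23.0 CPM in Malt1-WT, against 29.7, 29.5 and 28.5 CPM in vector control (log2 fold change -0.38, SE 0.071, adjusted p = 7.3e-06). The calls of Ndufaf8 and Ndufaf6, both of low count, depended on single libraries. Ndufaf8 had a log2 fold change of -0.41 (adjusted p = 0.00887) with overlapping groups, and its adjusted p was 0.103 without Malt1-WT replicate 1 and 0.0575 without vector control replicate 3. Ndufaf6 had -0.39 (adjusted p = 0.00822), and its adjusted p was 0.0933 without Malt1-WT replicate 2. Ndufaf2 had a log2 fold change of -0.38 (adjusted p = 0.000242), but its value is uncertain because its exons overlap B230220B15Rik on the opposite strand. Of its 50-base windows searched, 80.9% also occur in another transcript. That share includes this overlap, so it does not show a copy elsewhere in the genome.

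Complex II, succinate dehydrogenase, belongs both to the respiratory chain and to the tricarboxylic acid cycle. All 4 of its genes were lower in Malt1-WT, with a median log2 fold change of -0.37, and their summed level was 316 ± 4.31 CPM in Malt1-WT and 400 ± 6.61 CPM in vector control (SD, n = 3 each). For the catalytic pair, the flavoprotein Sdha had 168, 171 and 171 CPM in Malt1-WT, against 206, 215 and 207 CPM in vector control (log2 fold change -0.30, SE 0.034, adjusted p = 4.77e-11). The iron-sulfur subunit Sdhb had 63.1, 58.4 and 61.7 CPM in Malt1-WT, against 72.5, 74.8 and 74.4 CPM in vector control (log2 fold change -0.28, SE 0.047, adjusted p = 1.32e-06). The membrane anchors that bind ubiquinone had the larger estimates. Sdhd had 75.2, 71.8 and 77.1 CPM in Malt1-WT, against 105, 104 and 99.4 CPM in vector control (log2 fold change -0.46, SE 0.043, adjusted p = 1.61e-13). Sdhc, the least abundant of the 4, had 9.73, 10.6 and 11.2 CPM in Malt1-WT, against 14.6, 13.8 and 14.4 CPM in vector control (log2 fold change -0.44, SE 0.101, adjusted p = 0.00017). In none of the 4 genes did the groups overlap.

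Many nuclear respiratory genes are known for promoters with sites for NRF1 and for the ETS factor GABP. The stretches upstream of 2 complex II genes and 2 complex III genes are shown because these genes were all lower and each holds such letters. They are 120 bases 5′ to 3′ on the gene's strand, from RefSeq on GRCm38.p6, and capitals mark a match to the NRF1 motif (GCGCA, any base, then GCGC) or to CCGGAAG (ETS), each searched on both strands. The Sdha stretch is chr13:74350281-74350400, the Sdhd stretch is chr9:50603850-50603969, the Uqcrh stretch is chr4:116075072-116075191 and the Uqcr11 stretch is chr10:80406831-80406950, all on the minus strand.
Sdha: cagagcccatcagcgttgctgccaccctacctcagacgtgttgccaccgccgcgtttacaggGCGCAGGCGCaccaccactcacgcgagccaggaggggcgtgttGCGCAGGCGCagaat
Sdhd: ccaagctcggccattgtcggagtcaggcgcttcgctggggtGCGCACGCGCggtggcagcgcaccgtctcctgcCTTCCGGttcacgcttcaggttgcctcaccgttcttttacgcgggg
Uqcrh: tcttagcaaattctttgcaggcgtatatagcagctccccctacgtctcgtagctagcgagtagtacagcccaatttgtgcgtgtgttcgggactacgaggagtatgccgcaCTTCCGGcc
Uqcr11: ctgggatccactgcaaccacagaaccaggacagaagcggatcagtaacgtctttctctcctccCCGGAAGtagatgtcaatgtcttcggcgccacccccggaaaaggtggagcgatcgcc

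Across the nuclear subunits, 62 of 74 had a promoter in the RefSeq table, covering 250 bases before to 50 after the start. The NRF1 motif with any middle base occurred in 25.8% of them and in 4.78% of all 27025 promoters in the table. Its palindromic form, with T in the middle and counted within it, occurred in 8.06% and 0.977%. CCGGAAG occurred in 24.2% of subunit promoters and 9.12% of all promoters, and the YY1 motif in 6.45% and 0.899%. At least 1 of these motifs was found in 48.4% of subunit promoters and 13.6% of all promoters. By call, 19 of 40 subunits called lower held at least 1 motif, as did 1 of 3 called higher and 8 of 16 not called, and the other 3 were not tested. These matches are descriptions of letters and not bound sites.

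Complex III, the cytochrome bc1 complex, passes electrons from ubiquinol to cytochrome c. Its 7 tested nuclear subunits did not move together, with 4 lower, 2 higher and 1 not called. The median log2 fold change was -0.14, and it was -0.08 without vector control replicate 3. Their summed level was 454 ± 16 CPM in Malt1-WT and 474 ± 21.4 CPM in vector control (SD, n = 3 each). Cyc1, the cytochrome c1 of this complex, falls outside the name rule and is not counted here. It was lower, at 120 ± 2.71 CPM in Malt1-WT and 136 ± 4.97 CPM in vector control (log2 fold change -0.17, SE 0.038, adjusted p = 8.25e-05). Uqcrh, the hinge protein that sits beside cytochrome c1, had 50.2, 50.3 and 52.9 CPM in Malt1-WT, against 75.8, 82.7 and 78.3 CPM in vector control. The groups are far apart, with a log2 fold change of -0.63 (SE 0.049, adjusted p = 3.85e-16). Uqcr11, a small supernumerary subunit, had 43.6, 41.1 and 41.6 CPM in Malt1-WT, against 51.9, 57.2 and 57.5 CPM in vector control (log2 fold change -0.40, SE 0.056, adjusted p = 1.68e-08). Uqcr10, the most abundant per length, was lower by less, at 82.9 CPM per kilobase in Malt1-WT and 93.1 in vector control (log2 fold change -0.17, SE 0.053, adjusted p = 0.00524).

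Uqcrq, a small subunit of the same complex, was higher. It had 115, 106 and 118 CPM in Malt1-WT, against 78.6, 89.0 and 86.5 CPM in vector control, so that every Malt1-WT library exceeded every vector control library (log2 fold change 0.41, SE 0.045, adjusted p = 2.34e-11; chr11:53427922-53430831, minus strand). Uqcrfs1, the Rieske iron-sulfur protein, had 86.9, 83.2 and 85.1 CPM in Malt1-WT, against 75.7, 81.0 and 81.4 CPM in vector control. Its log2 fold change of 0.10 (SE 0.044, adjusted p = 0.0482) passed the threshold narrowly, and the call was lost in DESeq2 (adjusted p = 0.0969), without the filter on low counts (0.153) and whichever library was left out. Uqcrb had a log2 fold change of -0.14 at an adjusted p of 0.0497, with overlapping groups.

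Complex IV, cytochrome c oxidase, hands electrons to oxygen. Of its 9 tested nuclear subunits, 6 were lower, 1 was higher and 2 were not called, with a median log2 fold change of -0.14. Ndufa4 had the largest decrease, with 65.2, 64.0 and 62.3 CPM in Malt1-WT, against 72.6, 80.0 and 79.1 CPM in vector control (log2 fold change -0.28, SE 0.048, adjusted p = 1.52e-06). Cox6b1, the most abundant per length, stood at 147 CPM per kilobase in Malt1-WT and 161 in vector control (log2 fold change -0.12, SE 0.039, adjusted p = 0.00485). Cox5a was called higher, with a log2 fold change of 0.13 (SE 0.057, adjusted p = 0.0408). That call was lost in DESeq2 (adjusted p = 0.0826), without the filter on low counts (0.121) and whichever library was left out, and Cox5a also overlaps Gm26631 on the opposite strand. Cox7a2l, which joins complexes III and IV in supercomplexes and is not a core subunit of either, had 143, 134 and 134 CPM in Malt1-WT, against 120, 123 and 117 CPM in vector control. It was higher, with a log2 fold change of 0.19 (SE 0.038, adjusted p = 2.2e-05).

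Of the 7 tissue-restricted or condition-restricted isoforms, 6 had 25 or fewer counts in every library. Cox8b and Cox8c were listed at 0 in every library, as were the 4 widely used subunits named above, so a listed 0 does not show that a gene is silent. Cox6a2, a muscle isoform, had 25, 7 and 4 counts in Malt1-WT and 11, 6 and 9 in vector control. Cox7a1, also of muscle, had 6, 7 and 15 counts in Malt1-WT and 8, 11 and 5 in vector control. Ndufa4l2, known as a hypoxia-induced gene, had 2, 4 and 4 counts in Malt1-WT and 1, 4 and 6 in vector control, and Cox6b2 had 0 counts in Malt1-WT and 2, 0 and 0 in vector control. Cox7b2 was the only isoform tested. It had 56, 67 and 62 counts in Malt1-WT, against 94, 103 and 105 in vector control, and was lower by a log2 fold change of -0.61 (SE 0.167, adjusted p = 0.00129).

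Complex V, the ATP synthase, couples a catalytic F1 head through a peripheral stalk to a proton-driven ring of c subunits in the membrane. Of its 15 tested nuclear subunits, 14 were lower and 0 were higher. The remaining one was Atp5h, with a log2 fold change of -0.10 and an adjusted p of 0.0723. The median log2 fold change was -0.28, and the summed level was 2611 ± 40.9 CPM in Malt1-WT and 3042 ± 57.6 CPM in vector control (SD, n = 3 each). Among these 15, the medians were -0.22 for 4 F1 subunits, -0.30 for 4 stalk subunits, -0.27 for the 3 c subunit genes and -0.38 for 4 small membrane subunits. Usmg5, an ATP synthase gene outside the name rule and not counted here, had a log2 fold change of -0.05 and was not called (adjusted p = 0.372).

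Within the F1 head, Atp5b, the catalytic beta subunit and the most abundant nuclear member per length, had 1360, 1354 and 1357 CPM in Malt1-WT, against 1474, 1522 and 1501 CPM in vector control (log2 fold change -0.14, SE 0.024, adjusted p = 9.48e-07). The gamma subunit Atp5c1, which forms the rotating axle, had 203, 196 and 195 CPM in Malt1-WT, against 260, 267 and 255 CPM in vector control (log2 fold change -0.40, SE 0.033, adjusted p = 2.03e-15). In the stalk, Atp5o, which ties it to the head, had 76.2, 64.5 and 65.9 CPM in Malt1-WT, against 93.7, 92.4 and 90.9 CPM in vector control (log2 fold change -0.42, SE 0.048, adjusted p = 8.87e-11). The groups do not overlap in any of these 3, although Atp5o overlaps transcripts on the opposite strand. In GENCODE the symbol Atp5o also stands for 2 gene entries, which overlap on the same strand over 243 bases. Among the membrane subunits, Atp5k, subunit e, which takes part in dimer formation, had 19.4, 16.9 and 17.2 CPM in Malt1-WT, against 27.6, 25 and 26.2 CPM in vector control (log2 fold change -0.56, SE 0.080, adjusted p = 2.81e-08). Atp5j2, subunit f, had 68.2, 66.0 and 73.9 CPM in Malt1-WT, against 91.2, 97.9 and 95.7 CPM in vector control (log2 fold change -0.45, SE 0.046, adjusted p = 1.96e-12). The 3 paralogs that encode the same mature c subunit were each lower, by log2 fold changes of -0.35 for Atp5g1 (adjusted p = 1.03e-08), -0.21 for Atp5g2 (9.27e-06) and -0.27 for Atp5g3 (2.4e-08).

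**Figure D2:**
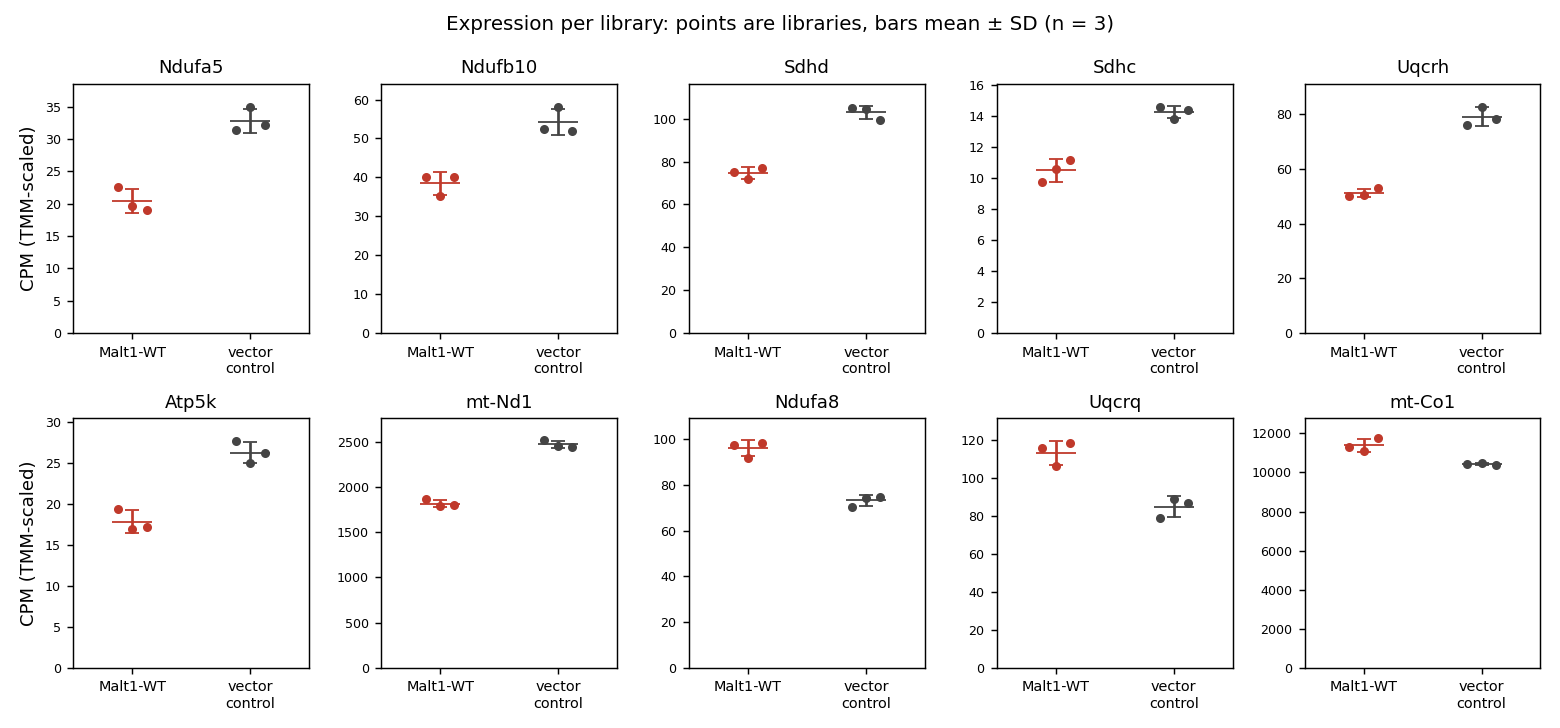
Expression of 10 members in TMM-scaled CPM (y axes, starting at 0), with Malt1-WT on the left and vector control on the right of each panel. Points are libraries and bars are mean ± SD (n = 3 each), and in all 10 genes the 3 libraries of one group lie apart from the 3 of the other, with Ndufa8, Uqcrq and mt-Co1 higher in Malt1-WT.

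The mitochondrial genome is transcribed as long precursors from each strand that are cut at intervening tRNAs into the separate messenger RNAs. The 13 protein-coding genes held 2.05%, 2.03% and 2.09% of all counts in the Malt1-WT libraries, against 2.23%, 2.19% and 2.18% in the vector control libraries. The ratio of the means was 0.935, without overlap of the groups. Its SD of 0.0178 combines the SDs of single libraries in the 2 groups and is not a standard error of the ratio. Taken relative to the counts of the nuclear subunits instead, the same ratio was 1.12, in the other direction. After scaling between libraries the sums were close, at 21156 ± 359 CPM in Malt1-WT and 21458 ± 189 CPM in vector control (SD, n = 3 each), a difference of -1.41%. The libraries of the 2 groups overlap in this scaled sum, whereas those of the nuclear subunits did not.

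Individual mitochondrial genes moved in both directions. Of the 13, 6 were lower, 2 were higher and 5 were not called. Their median log2 fold change was -0.15, and it was -0.06 without Malt1-WT replicate 1. Complex I subunit mt-Nd1 (chrM:2751-3707) had 1863, 1786 and 1806 CPM in Malt1-WT, against 2519, 2459 and 2448 CPM in vector control. It was lower with a wide gap between the groups (log2 fold change -0.44, SE 0.024, adjusted p = 1.53e-22). The neighbouring complex I gene mt-Nd2 had 1923, 1846 and 1869 CPM in Malt1-WT, against 2293, 2189 and 2203 CPM in vector control (log2 fold change -0.25, SE 0.024, adjusted p = 9.27e-13). mt-Cytb, the cytochrome b of complex III at the far end of the same strand, had 2063, 2025 and 2031 CPM in Malt1-WT, against 2323, 2308 and 2284 CPM in vector control (log2 fold change -0.18, SE 0.023, adjusted p = 2.97e-09).

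Among the other complex I genes, mt-Nd6, the one protein gene on the opposite strand, was lower as well (log2 fold change -0.15, SE 0.030, adjusted p = 3.33e-05), at 555, 502 and 519 CPM in Malt1-WT, against 599, 583 and 566 CPM in vector control. For mt-Nd5 the estimate was small (log2 fold change -0.06, SE 0.024, adjusted p = 0.0287), and the adjusted p was 0.0858 without Malt1-WT replicate 1 and 0.0578 without vector control replicate 1. Its last bases overlap mt-Nd6 on the opposite strand. The complex IV gene mt-Co2, with 278, 290 and 252 counts in Malt1-WT and 336, 390 and 323 in vector control, was lower (log2 fold change -0.26, SE 0.091, adjusted p = 0.0101), and its adjusted p was 0.0655 without vector control replicate 2.

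The 2 genes called higher belong to complexes IV and I. mt-Co1, the catalytic subunit of complex IV, had 11305, 11115 and 11757 CPM in Malt1-WT, against 10414, 10491 and 10403 CPM in vector control (log2 fold change 0.13, SE 0.021, adjusted p = 6.25e-07). It made up 53.8% ± 0.675 of the counts of the 13 genes in Malt1-WT and 48.6% ± 0.498 in vector control (SD, n = 3 each). The complex I gene mt-Nd4 had 1321, 1392 and 1332 CPM in Malt1-WT, against 1224, 1162 and 1168 CPM in vector control (log2 fold change 0.19, SE 0.026, adjusted p = 1.48e-08). Scaled by library size only, the log2 fold change was 0.05 for mt-Co1 (adjusted p = 0.0202) and 0.11 for mt-Nd4 (0.000171). Neither gene was called against a minimum change of 1.2-fold. Without mt-Co1, the ratio of the mitochondrial shares of counts was 0.840, an alternative chosen after seeing the data.

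Not called were mt-Co3 (log2 fold change -0.10, adjusted p = 0.435), mt-Atp6 (-0.18, adjusted p = 0.131), mt-Nd3 (-0.15, adjusted p = 0.739), mt-Nd4l (0.23, adjusted p = 0.503) and mt-Atp8 (0.03, adjusted p = 0.948). For mt-Atp6 the call depended on the libraries, with an adjusted p of 0.00885 without Malt1-WT replicate 2, where it was lower, and 0.0226 without vector control replicate 3. The last 3 had few counts, for example 14, 25 and 12 for mt-Nd3 in Malt1-WT and 22, 24 and 14 in vector control.

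Levels per length split the mitochondrial genes into 2 ranges. From mt-Nd1, mt-Nd2, mt-Co1, mt-Nd4, mt-Nd5, mt-Nd6 and mt-Cytb, 979 to 7374 CPM per kilobase were counted in Malt1-WT and 860 to 6755 in vector control. The other 6 genes, which lie together in the middle of the genome, gave 2.62 to 23.1 CPM per kilobase in Malt1-WT and 2.96 to 26.3 in vector control. These include mt-Co2 and mt-Atp6, whose products every respiring cell needs. The share of a gene's 50-base windows that occurs letter for letter in a nuclear transcript of the GENCODE annotation was 100% for mt-Co2, 99.5% for mt-Atp6, 99.9% for mt-Co3, 98.0% for mt-Nd3 and 98.8% for mt-Nd4l. It was 0 for mt-Nd1, mt-Nd6 and mt-Cytb, 8.19% for mt-Nd2, 7.61% for mt-Nd5, 51.1% for mt-Co1 and 62.2% for mt-Nd4. mt-Atp8, the shortest of the 13, shared none with an annotated transcript but overlaps mt-Atp6 over 43 bases. Nuclear sequence outside annotated transcripts was not searched, so this does not show that mt-Atp8 has no nuclear copy.

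The nuclear sequences behind most of these windows are unprocessed pseudogenes, copies of mitochondrial DNA carried on chromosome 1. Over the aligned bases, Gm28661 matched mt-Co2 with 0 mismatches in 681 bases, Gm10925 matched mt-Atp6 with 0 in 678, Gm28437 matched mt-Co3 with 0 in 783, and Gm28439 matched mt-Nd4 with 0 in 876. Stretches of 60 bases from GRCm38 are set side by side because a read of such a stretch matches both places or nearly so. They run 5′ to 3′ on the gene's strand, and capitals mark bases that differ. The mt-Atp6 stretch is chrM:8236-8295 and its copy chr1:24614283-24614342, the mt-Co2 stretch is chrM:7323-7382 and its copy chr1:24615196-24615255, and the mt-Nd3 stretch is chrM:9459-9518 and its copy chr1:24613060-24613119. For contrast, mt-Nd2 at chrM:4663-4722 is shown with the more diverged Gm13339 at chr2:22590253-22590312.
mt-Atp6: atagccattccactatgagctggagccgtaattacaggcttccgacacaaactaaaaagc
Gm10925: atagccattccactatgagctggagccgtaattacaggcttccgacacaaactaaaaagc
mt-Co2: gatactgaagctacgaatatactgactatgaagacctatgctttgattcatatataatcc
Gm28661: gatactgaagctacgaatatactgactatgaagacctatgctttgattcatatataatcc
mt-Nd3: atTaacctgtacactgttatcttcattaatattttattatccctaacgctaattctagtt
Gm28438: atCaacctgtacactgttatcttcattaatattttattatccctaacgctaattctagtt
mt-Nd2: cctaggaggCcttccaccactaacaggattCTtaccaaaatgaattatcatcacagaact
Gm13339: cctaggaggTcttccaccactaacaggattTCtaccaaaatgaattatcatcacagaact

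Of the 7 genes that share more than 50% of their windows, mt-Co1 and mt-Nd4 were higher, mt-Co2 was lower, and mt-Co3, mt-Atp6, mt-Nd3 and mt-Nd4l were not called. Of the 6 that share less than 10% with annotated nuclear transcripts, 5 were lower and mt-Atp8 was not called. With only the 6 genes under 10%, the median log2 fold change was -0.16, an alternative chosen after seeing the data. No source used here says how reads that match both places were counted, and the part of shared sequence in these levels and differences was not tested. Among the 82 tested nuclear members, 61 shared less than 10% of their windows with another transcript and 1, Ndufaf2, shared more than 50%. For nuclear members these shares include genes that overlap at the same place on either strand, not only sequence found elsewhere.

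**Figure D3:**
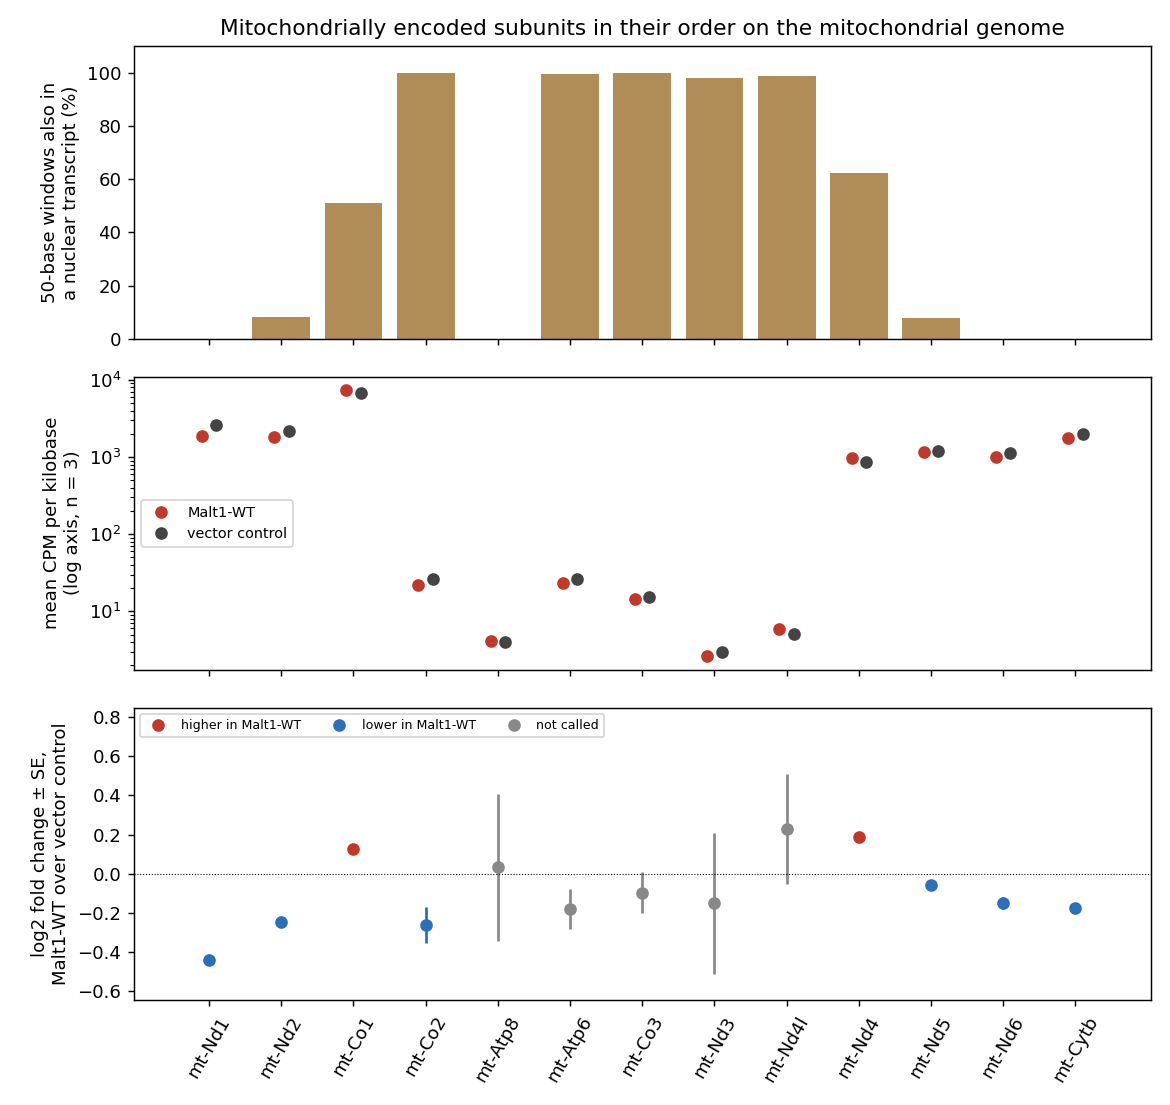
The 13 mitochondrially encoded genes along the x axis in genome order, with the share of their 50-base windows found in a nuclear transcript (top, %), the mean level per kilobase in Malt1-WT and vector control (middle, log axis, n = 3 each) and the log2 fold change ± SE (bottom). Genes with 98.0% or more shared windows lie under 30 CPM per kilobase, as does mt-Atp8 with 0%, and mt-Co1 and mt-Nd4 are the genes called higher.

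Genes that work beside the complexes but fall outside the name rule were read from 6 lists, whose counts stand beside 30.2% lower and 31.0% higher among all genes tested. Of 10 tested respiratory chain genes missed by the rule, 7 (70%) were lower and 1 (10%) was higher, with a median log2 fold change of -0.18. Etfdh, which passes electrons from fatty acid oxidation to ubiquinone, averaged 23.9 ± 0.762 CPM in Malt1-WT and 37.5 ± 2.17 CPM in vector control (SD, n = 3 each), a log2 fold change of -0.65 (adjusted p = 6.91e-12). Atpif1, the inhibitor of ATP synthase, averaged 20.01 ± 0.6004 CPM in Malt1-WT and 30.6 ± 1.64 CPM in vector control (log2 fold change -0.61). Etfb, of low count, was lower with a log2 fold change of -0.61 (adjusted p = 0.0178). That call was lost without Malt1-WT replicate 3, without vector control replicate 1 and without vector control replicate 3. Cycs, cytochrome c, was the one higher, at 0.19, while Cox4i1 of complex IV had 0.04 and was not called (adjusted p = 0.313). Of 38 tested assembly factors other than Ndufaf genes, 15 (39.5%) were lower and 4 (10.5%) were higher, with a median of -0.16. The largest decrease was that of Cmc2, a complex IV biogenesis factor, at 8.98 ± 0.0693 CPM in Malt1-WT and 17.5 ± 1.88 CPM in vector control (SD, n = 3 each; log2 fold change -0.96). Uqcc2 and Lyrm7, both needed for complex III assembly, had log2 fold changes of -0.62 each and were lower. Cox17, a copper chaperone for complex IV, was higher (0.54), as was Ecsit (0.39), a complex I assembly factor also known in innate signalling.

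The machinery that expresses mitochondrial DNA gave 8 lower (50%) and 0 higher of 16 tested genes, with a median log2 fold change of -0.09. Mgme1, a mitochondrial exonuclease, had -0.62, Mterf2 had -0.55, Polg2 had -0.51 and the RNA polymerase Polrmt had -0.41, all lower. The call of Polg2 was lost without vector control replicate 2. Tfam, the main packaging protein and transcription factor, averaged 75.5 ± 3.19 CPM in Malt1-WT and 76.5 ± 1.13 CPM in vector control (SD, n = 3 each) and was not called (log2 fold change -0.02, adjusted p = 0.761). Mitochondrial ribosomal proteins, which translate the 13 messages, had 36 lower (49.3%) and 7 higher (9.59%) of 73 tested, with a median of -0.17 and the largest decreases in Mrps6 (-0.94), Mrpl18 (-0.73) and Mrpl42 (-0.66). In the tricarboxylic acid cycle and pyruvate dehydrogenase list, without the Sdh genes, 12 of 19 (63.2%) were lower and 4 (21.1%) were higher, with a median of -0.14. Ogdh (-0.59), Idh2 (-0.56) and Suclg2 (-0.44) were lower, and Dld, the dehydrogenase subunit shared by several such complexes, was higher at 0.37.

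Of the 9 tested regulators of nuclear respiratory genes, 5 (55.6%) were lower and 2 (22.2%) were higher. Esrra, an orphan nuclear receptor that activates respiratory genes, averaged 28.6 ± 0.678 CPM in Malt1-WT and 15.5 ± 1.13 CPM in vector control (SD, n = 3 each), a log2 fold change of 0.88. Nrip1, a nuclear receptor corepressor, was also higher, at 0.62. Pprc1, a coactivator of the same family as Ppargc1a, was lower at -0.57, with 97.7 ± 3.21 CPM in Malt1-WT and 145 ± 1.29 CPM in vector control (SD, n = 3 each). Gabpa was lower (-0.15, adjusted p = 0.00103) and Nrf1 had 0.10 (adjusted p = 0.0552). Ppargc1a had 7 counts and Ppargc1b 2 counts over all 6 libraries, too few to test.

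**Figure D4:**
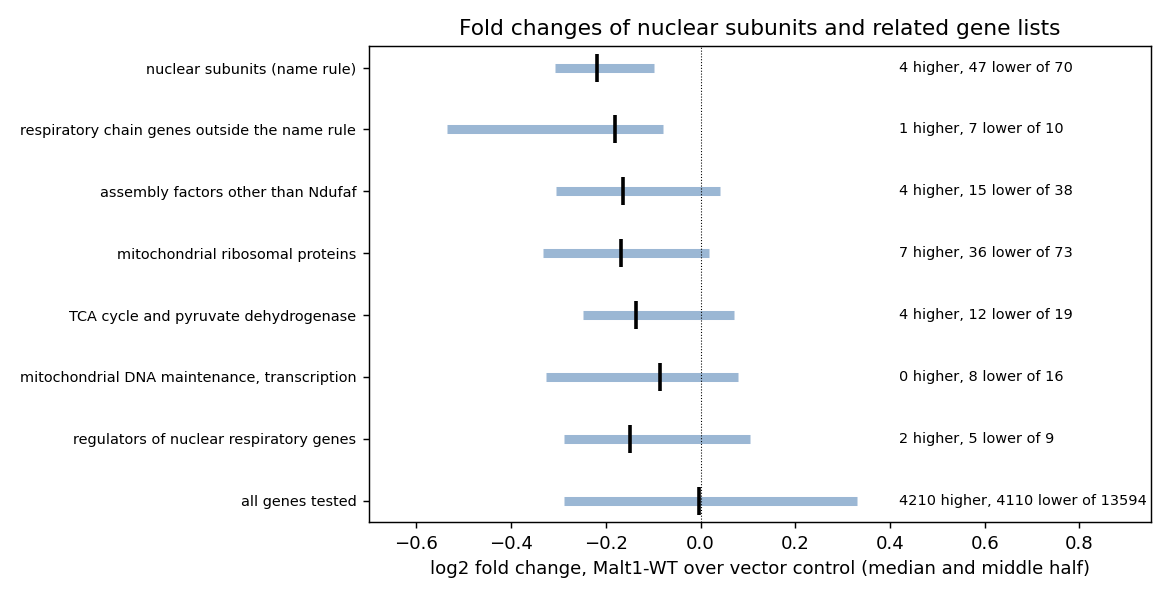
Median log2 fold change of Malt1-WT over vector control (x axis, black tick) with the quartiles (bar ends) for the nuclear subunits, 6 related lists and all genes tested (rows), with the numbers called. The nuclear subunits have a median of -0.22, the lists lie between -0.18 and -0.09, and all genes tested have a median of -0.00.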

How the data were processed

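RNA from 6 libraries of E0771 cells was analysed, 3 Malt1-WT and 3 vector control, grouped by their titles. Extraction with RNAiso Plus and paired-end sequencing of NEBNext Ultra II Directional libraries are stated per the labels' protocols. The submitters' processing notes name featureCounts 1.6.3, STAR 2.7.3a, Trim Galore 0.6.0 and the build GRCm38.p6 (mm10). No source used here gives the annotation or the strand setting. The authors deposited raw counts per gene, 1 column per library, per the file headers, and their own comparison columns were not used. Nothing in the labels says that libraries came from separate cultures, so p-values reflect the spread of these libraries alone, and that may be technical. Within each group, libraries differed beyond sampling noise (chi-square per degree of freedom 2.19 to 3.01).

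Counts were fitted on the whole table with edgeR 4.0.16 (R 4.3.3): filterByExpr with a minimum count of 10, TMM scaling (factors 0.973 to 0.976 in Malt1-WT and 1.02 to 1.03 in vector control), a robust quasi-likelihood fit without a block, and Benjamini-Hochberg adjustment over 13594 genes. The SE is the size of the log2 fold change divided by the square root of F. CPM per kilobase uses exon lengths of GENCODE M21, which may differ from the annotation used for counting. The fit was tested on simulated data. Exons of 28 tested members overlap a gene on the opposite strand. Alternatives were DESeq2 1.42.0, other scalings, no filter, glmTreat in edgeR, a replicate block and leaving out each library.

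The members and lists were chosen with earlier results of these data known, and all counts over them are descriptions. Genes named by rule are the mitochondrial and Sdh genes, up to 3 largest changes each way per complex with an adjusted p under 0.05 and mean log2 CPM not under 1, the most abundant per length, the isoforms, the c subunit genes and the 3 largest changes per list. Others, such as Ndufa11, Atp5c1, Uqcrb, Ndufaf2, Tfam, Polrmt, Cyc1, Cycs and Usmg5, were named after their values were seen. For 1 tested complex I subunit the individual result is not reported here.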

Additional observations from a re-analysis of the deposited data

How the results depend on the processing

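The medians of the nuclear subunits, the mitochondrial subunits, the nuclear subunits of complexes I to V and the assembly factors, and the called genes among the 58 tested genes named by rule, kept their direction under the alternatives run. Medians of all members, complex I modules and subunit classes, parts of complex V and related lists were not rerun. Without TMM factors (library size only), the median of all genes moved by -0.08, and the medians were -0.29 for nuclear subunits, -0.27, -0.45, -0.22, -0.22 and -0.36 for the nuclear subunits of complexes I to V, and -0.32 for assembly factors, with 5 members higher and 71 lower. In that setting 8534 genes were called in all, a count not split by direction. Against a minimum change of 1.2-fold, 4767 genes were called (8320 in the test against no change), with 2 members higher and 16 lower. Set against the nuclear subunits rather than all counts, the mitochondrial share in Malt1-WT was 1.12 times that in vector control, so that its direction turned, and without mt-Co1 the share itself was 0.840 times. Leaving out 1 library gave 7878 to 8074 called genes, 5 to 6 members higher and 56 to 62 lower, and medians of -0.24 to -0.19 for nuclear and -0.18 to -0.06 for mitochondrial subunits, -0.24 to -0.17, -0.40 to -0.35, -0.18 to -0.08, -0.17 to -0.13 and -0.32 to -0.27 for complexes I to V, -0.25 to -0.20 for assembly factors, and a mitochondrial ratio of 0.927 to 0.942. The mitochondrial median was -0.060 without Malt1-WT replicate 1, and the complex III median was -0.080 without vector control replicate 3. DESeq2 called 7632 genes in all, with 5 members higher and 56 lower. The causes of these differences were not tested. Replicate numbers are shared only as numbers (correlations of same-numbered deviations -0.03, -0.02 and 0.02). With the replicate block, 8168 genes were called, with 5 members higher and 57 lower, and mt-Nd5 (adjusted p = 0.082), Uqcrfs1 (0.066) and Cox5a (0.052) were not called.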
